A study of Homo sapiens with 2 samples.

Results

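The RAB GTPases were compared between VMRC-LCD cells transfected with si-NC, a negative control siRNA, and the same cells transfected with si-*DRAIC*2, an siRNA against the long non-coding RNA *DRAIC*. VMRC-LCD is a human lung adenocarcinoma line with neuroendocrine (NE) differentiation. Both siRNAs were given at 20 nmol/L for 72 h, and total RNA of each condition was hybridized to 1 Human Clariom S array to look for genes downstream of *DRAIC*. Members were the rows whose annotated symbol is RAB followed by a number and, where present, a letter, which gave 62 genes, each with 1 row, of 21448 transcript clusters (0.289%). *RAB4B* has no named row and was not analysed here, and other RAB-named proteins, such as the *RAB11FIP* effectors, fall outside this rule.

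RAB proteins form the largest branch of the RAS superfamily of small GTPases. Each one marks particular membranes and, when bound to GTP, recruits the effectors that move, tether and fuse vesicles. Exchange factors load them with GTP, GTPase-activating proteins with a TBC domain switch them off, and a lipid anchor, added with the help of REP and removed from membranes by GDI, holds them in place. In NE cells the RAB3 and RAB27 proteins are known for the regulated release of secretory granules.

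All signals below are the deposited log2 values. Differences were taken by subtracting the si-NC value from the si-*DRAIC*2 value, so that positive numbers mean more signal after si-*DRAIC*2. Genes are called higher or lower once the arrays differ by more than 1.5-fold, which is 0.58 on the log2 scale, and dim if their mean signal is under the median of all rows. With 1 array per condition there is no replicate check of any difference, and no p-value is given. Probes differ between genes in how strongly they respond, so signals of different genes are set side by side and not ranked as amounts of RNA. In RNA from a whole culture, fewer cells of a kind and less RNA per cell cannot be told apart. *DRAIC* has no named row either, so its knockdown could not be checked on these arrays. Over all rows the signals ran from 2.08 to 18.2, and the median difference was −0.011 with an SD of 0.38. In families presumed silent in this line, such as olfactory receptors and keratin-associated proteins, 95% of the 494 rows averaged no more than 6.0 over both arrays, which is called the silent level here. Of the epithelial markers 5 of 6 and of the NE markers 7 of 7 measured lay above it, and all of these were within 1.5-fold. Of the blood cell markers 0 of 5 did, and of the fibroblast markers 2 of 5 (*COL1A2* and *LUM*). *PDGFRB* and *HBB*, markers of fibroblasts and red cells below the silent level, were lower, and whether other cells had a part in the RAB values was not tested.

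Most RAB genes gave a signal well above that level in both conditions. A mean signal above the silent level was found for 48 of the 62, and 45 (72.6%) were at or above the median of all rows. The brightest rows were those of *RAB7A*, which acts in transport to lysosomes, with 15.81 in si-NC and 15.96 in si-*DRAIC*2, and of *RAB1A*, which acts between the endoplasmic reticulum and the Golgi, with 15.56 and 15.75. *RAB3B*, a RAB of secretory vesicles, had 15.34 and 15.47. *RAB10*, which acts in exocytosis, had 14.79 and 15.02, and *RAB1B* 14.47 and 14.59. All of these 5 were within 1.5-fold between the arrays, and all had a slightly higher signal in si-*DRAIC*2. The 14 genes at or below the silent level included *RAB38* and *RAB32*, known for melanosomes and other lysosome-related organelles, *RAB27B* and *RAB37* of secretory granules, *RAB20*, *RAB41* and *RAB44*. Their signals were too low to say that these genes were expressed.

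**Figure D1:**
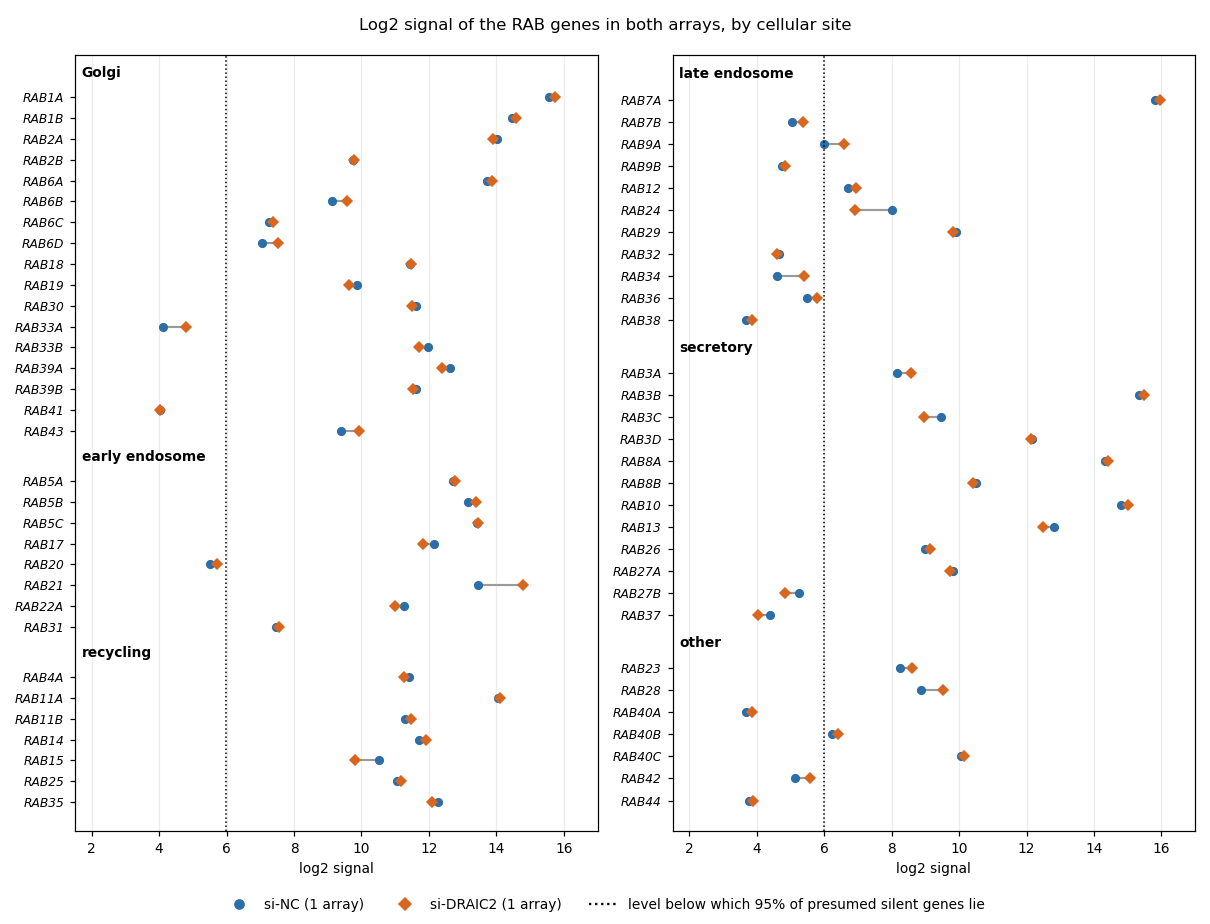
Log2 signal of each of the 62 RAB genes (x axis) in si-NC (circle) and si-*DRAIC*2 (diamond), 1 array each, grouped by the cellular site at which the protein is best known to act. The dotted line is the silent level of 6.0. The pairs of symbols nearly coincide for most genes, and *RAB21*, *RAB24*, *RAB15*, *RAB28*, *RAB34* and *RAB33A* show the widest gaps.

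Of the 62 RAB genes, 56 were within 1.5-fold between the arrays, 4 were higher in si-*DRAIC*2 and 2 were lower. These 6 genes are 9.68% of the family, and 11.4% of all rows passed the same threshold, with 5.13% of all rows higher and 6.26% lower. At or above the median signal, 2 RAB genes were higher and 2 lower, 8.89% of the 45 there, against 8.36% of all rows at that signal. Below the median signal, 2 of 17 RAB genes passed 1.5-fold (11.8%), against 14.4% of all rows. The count past 1.5-fold was therefore close to that of the whole array at each signal. Past 2-fold lay *RAB21* and *RAB24*, with 1.6% of all rows beyond the same limit. The differences of the family had an SD of 0.36.

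*RAB21* was the RAB gene with the largest difference. It encodes a GTPase of early endosomes that acts in the endocytosis of integrins. Its log2 signal rose from 13.45 in si-NC to 14.79 in si-*DRAIC*2, by 1.33 or 2.52-fold. Among all rows this was the 19th highest difference. Other early endosome RABs with high signals did not show a difference of this size. *RAB5A*, *RAB5B* and *RAB5C*, which control the fusion of early endosomes, had differences of 0.057, 0.23 and 0.033, and *RAB22A*, which acts in sorting at early endosomes, had −0.26.

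*RAB24* had the largest difference in the other direction. It encodes an unusual RAB protein with low GTPase activity that has been linked to autophagy. Its log2 signal went from 8.01 in si-NC to 6.92 in si-*DRAIC*2, a difference of −1.08, so that it was 2.12-fold lower. *RAB15*, which acts in the recycling of receptors from endosomes and is best known from neurons, went from 10.52 in si-NC to 9.80 in si-*DRAIC*2 (−0.72). *RAB28*, a RAB of cilia that is mutated in a cone-rod dystrophy, went from 8.86 to 9.53 (0.67). These 3 genes had signals above the silent level in both arrays.

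The remaining higher genes were dim. *RAB34*, which acts in the positioning of lysosomes and in the formation of cilia, went from a log2 signal of 4.61 in si-NC to 5.40 in si-*DRAIC*2. *RAB33A* went from 4.12 to 4.80. *RAB36*, the close paralog of *RAB34*, had 5.48 and 5.77, also below the silent level. The differences of *RAB34* and *RAB33A* were 0.79 and 0.69, and both genes lay below the silent level in both arrays. After an offset of 32 was put on the linear signals of both arrays, the differences of *RAB34* and *RAB33A* were 0.39 and 0.28, and neither passed 1.5-fold. In the presumed silent families 14.6% of the rows passed 1.5-fold, as much as among dim rows in general. Just inside the threshold lay *RAB28* (1.59-fold higher) and *RAB15* (1.65-fold lower). Just outside lay *RAB9A*, which acts between late endosomes and the trans-Golgi network, at 1.49-fold higher, and *RAB3C* at 1.41-fold lower.

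**Figure D2:**
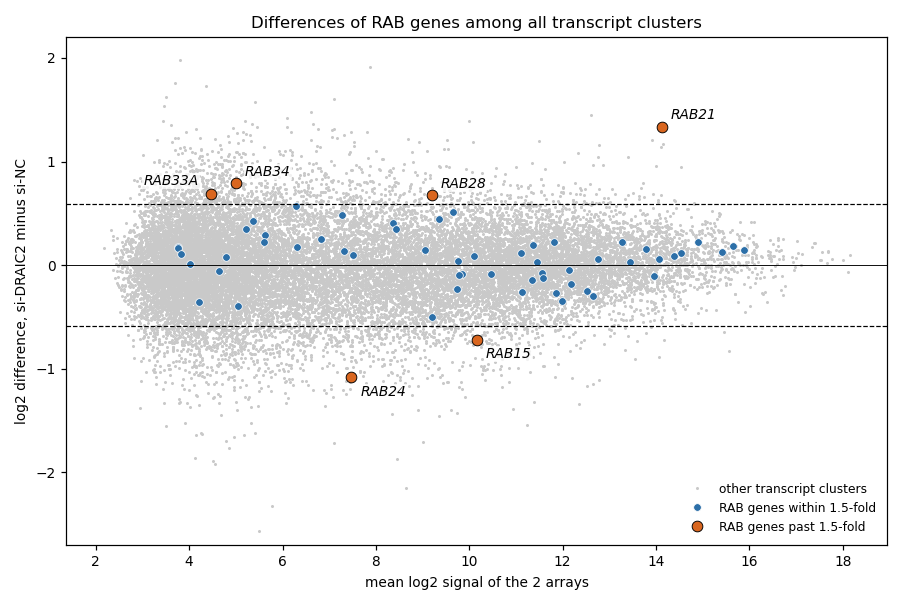
Log2 difference between si-*DRAIC*2 and si-NC (y axis) against the mean log2 signal of both arrays (x axis) for all 21448 transcript clusters, with the 62 RAB genes drawn larger and those past 1.5-fold (dashed lines) named. *RAB21*, at a difference of 1.33 and a mean signal of 14.12, stands among few points, and *RAB33A* and *RAB34* lie where the cloud of all rows is wide.

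Small differences of the RAB genes were more often positive than negative. The signal was higher in si-*DRAIC*2 for 41 of the 62 genes (66.1%), against 48.4% of all rows, and the median difference was 0.10, against −0.011 over all rows. The quartiles were −0.091 and 0.23. At or above the median signal the median was 0.061 over 45 RAB genes and −0.0084 over all such rows. There 60.0% of the RAB genes had a positive difference, against 48.8% of all such rows. Below it, 14 of 17 RAB genes (82.4%) had a positive difference, against 48.1% of all such rows. The median there was 0.18, against −0.015 over all such rows. Of these 17 RAB genes, 14 lay at or below the silent level. The median over the 62 genes, 0.10, corresponds to a change far below 1.5-fold, and it was positive under each alternative processing that gave a value.

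The promoters were read to see what else *RAB21* and *RAB24*, which differed most and in opposite directions, have in common. RefSeq sequences (GRCh38.p14) were at hand for 49 of the 62 genes, *RAB21*, *RAB24*, *RAB28* and *RAB34* among them, and the 250 bases before the gene's start were searched on both strands, at 1 start per gene. The E-box CACGTG, a motif bound by MYC, USF and TFEB family factors, was found in 5 of the 49 RAB promoters (10.2%) and in 7.69% of the 14250 promoters of genes named on the array. *RAB21* and *RAB24*, for which the promoters were read, are among the 5, so this share is not independent of that choice. The 5 stretches are shown in the direction of the gene with the E-box in capitals.
*RAB21*: ggcaccggcgctCACGTGacccgaggtgtg
*RAB31*: ccggccggcggcCACGTGacccaccgcggc
*RAB5A*: cactcgcagggtCACGTGacatcctgcctc
*RAB4A*: gcccagcccgcgCACGTGcttccggcgcgc
*RAB24*: cggcgcccgcgcCACGTGaccttgcggccc

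The stretch of *RAB21* lies on the plus strand at chr12:71754831-71754860, and its E-box begins 20 bases before the start of the gene. That of *RAB24* lies on the minus strand at chr5:177303732-177303761, with the E-box 30 bases before the start. *RAB31* (chr18:9708229-9708258), *RAB5A* (chr3:19946964-19946993) and *RAB4A* (chr1:229270997-229271026), all on the plus strand, have it 60, 121 and 102 bases before the start. The *RAB5A* stretch overlaps the gene *EFHB* and that of *RAB4A* the gene *RAB4A-AS1*. In 4 of the 5 the E-box is followed by AC. This longer form, CACGTGAC, was searched after the sequences had been read. It was present in 4 of the 49 RAB promoters (8.16%) and 3.17% of those of array genes, always counting both strands. The form was taken from these same 4 stretches, so the higher share among RAB promoters follows from that choice and is not a result.

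The differences of these 5 genes had both signs, which for *RAB21* and *RAB24* was known before the search. *RAB21* was higher and *RAB24* lower, while *RAB31* (7.45 in si-NC and 7.55 in si-*DRAIC*2), *RAB5A* (12.73 and 12.78) and *RAB4A* (11.42 and 11.27) were within 1.5-fold. Their median difference was 0.057, and that of the 44 RAB genes without the E-box was 0.10. Of these 44, 2 were higher and 0 lower, with 11.4% of all rows past 1.5-fold. *RAB15*, the other lower RAB gene, and *RAB33A*, which was higher, had no sequence at hand and are in neither group. Because *RAB21* and *RAB24* prompted the search and the genes are few, a link between the E-box and the differences was not tested. The GC box GGGCGG was present in 77.6% of the RAB promoters and in 56.8% of those of array genes. TGACG, the core of the cAMP response element, was present in 36.7% and 25.5%, CCAAT in 24.5% and 34.6%, and TATAAA in 8.16% and 9.1%. TGATGNAA, the composite element read by ATF4 and C/EBP proteins, was present in 1 RAB promoter (2.04%) and in 2.18% of those of array genes. The GC content of the RAB promoters had a median of 64.8%, against 62.4% for array genes.

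Among the 17 RABs of the Golgi and of the transport between it and the endoplasmic reticulum, *RAB33A* alone passed 1.5-fold. This is 5.88% of them, against 11.4% of all rows, and the median difference was 0.043. *RAB43*, which acts in transport from the endoplasmic reticulum through the Golgi, had a difference of 0.52, from 9.40 to 9.91, whereas its paralog *RAB19* had −0.23, from 9.86 to 9.63. *RAB6A*, which acts in retrograde traffic to and within the Golgi, had 13.71 in si-NC and 13.87 in si-*DRAIC*2, and its neuronal paralog *RAB6B* had 9.14 and 9.58, a difference of 0.45. *RAB6C* and *RAB6D* are intronless relatives of *RAB6A* with near-identical sequence, so their differences of 0.14 and 0.48 may hold signal from each other or from *RAB6A*. *RAB2A* (−0.10), *RAB2B* (0.043), *RAB18* (0.025), a RAB of lipid droplets, and *RAB30* (−0.12) differed little. *RAB33B*, which binds the autophagy protein ATG16L1, had −0.27, and *RAB39A* and *RAB39B* had −0.25 and −0.077.

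The 8 RABs of early endosomes had a median of 0.077, and *RAB21* was the only one past 1.5-fold (12.5%, against 11.4% of all rows). *RAB17*, known from the apical recycling of polarized epithelial cells, had 12.15 in si-NC and 11.81 in si-*DRAIC*2 (−0.34). The 7 recycling RABs had a median of 0.061. *RAB11A*, *RAB11B* and *RAB25*, which guide recycling endosomes to the surface, had differences of 0.061, 0.19 and 0.12, and *RAB14* had 0.23. *RAB35* and *RAB4A*, which act in fast recycling, had −0.18 and −0.15, and *RAB15* was the only gene of this site past 1.5-fold (14.3%). Among the 11 RABs of late endosomes, lysosomes and related organelles, *RAB34* was higher and *RAB24* lower (18.2%), and the median was 0.17. All but *RAB7A*, *RAB24* and *RAB29* were dim, and these 3 had a median of −0.089. *RAB29*, which acts with the kinase LRRK2, had 9.89 in si-NC and 9.80 in si-*DRAIC*2. Of the dim ones, *RAB12* had 0.25, *RAB7B* 0.35 and *RAB9B* 0.074. Among so few genes per site, the counts past 1.5-fold are not a result about the sites.

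Of the 12 RABs of regulated and polarized secretion, 0 passed 1.5-fold, with 11.4% of all rows past it, a share at which a count of 0 among so few genes is not a result about them. Of these genes 5 had a positive and 7 a negative difference, with a median of −0.068, which was 0.016 over the 10 at or above the median signal. The RAB3 paralogs, which act in the docking of secretory vesicles, had differences of both signs, all within 1.5-fold. *RAB3A*, the main form of synapses, had 8.17 in si-NC and 8.58 in si-*DRAIC*2 (0.41). *RAB3C* had 9.45 and 8.96 (−0.50). *RAB3B* (0.13) and *RAB3D* (−0.052) lay between them. *RAB27A*, which tethers secretory granules at the plasma membrane, had 9.82 in si-NC and 9.73 in si-*DRAIC*2, and *RAB26*, another granule RAB, had 8.99 and 9.13. *RAB8A*, *RAB8B*, *RAB10* and *RAB13*, which carry vesicles to the plasma membrane, cilia or tight junctions, had differences of 0.084, −0.084, 0.23 and −0.30.

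The 7 genes of other or uncertain sites all had positive differences, with a median of 0.18. Positive differences made up 66.1% of all RAB genes and 48.4% of all rows, and these 7 genes are not joined by a common site. *RAB23*, an inhibitor of Hedgehog signaling that acts at cilia, had 8.26 in si-NC and 8.61 in si-*DRAIC*2 (0.35). *RAB40A*, *RAB40B* and *RAB40C*, which join ubiquitin ligase complexes through a SOCS box, had differences of 0.18, 0.18 and 0.089. *RAB40A*, *RAB42* and *RAB44* were below the silent level.

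Side by side, 48 of the 62 genes fall into 18 sets of close paralogs. The gap between the highest and the lowest difference of a set had a median of 0.41. It was above 1.5-fold in 4 sets, namely *RAB33A* and *RAB33B* (0.95), the RAB3 genes (0.90), *RAB19* and *RAB43* (0.74), and *RAB42* with *RAB39A* and *RAB39B* (0.67). In the first and the last of these the higher gene lay below the silent level, whereas all members of the other two lay above it. The narrowest gaps were those of *RAB1A* and *RAB1B* (0.064), the RAB40 genes (0.090) and *RAB11A*, *RAB11B* and *RAB25* (0.13). Differences of both signs occurred in 9 of the 18 sets. No such gap was computed for sets of unrelated rows, and the differences over all rows had an SD of 0.38. A gap between extremes also tends to be wider in larger sets. Whether paralogs differ more than other genes was not tested.

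**Figure D3:**
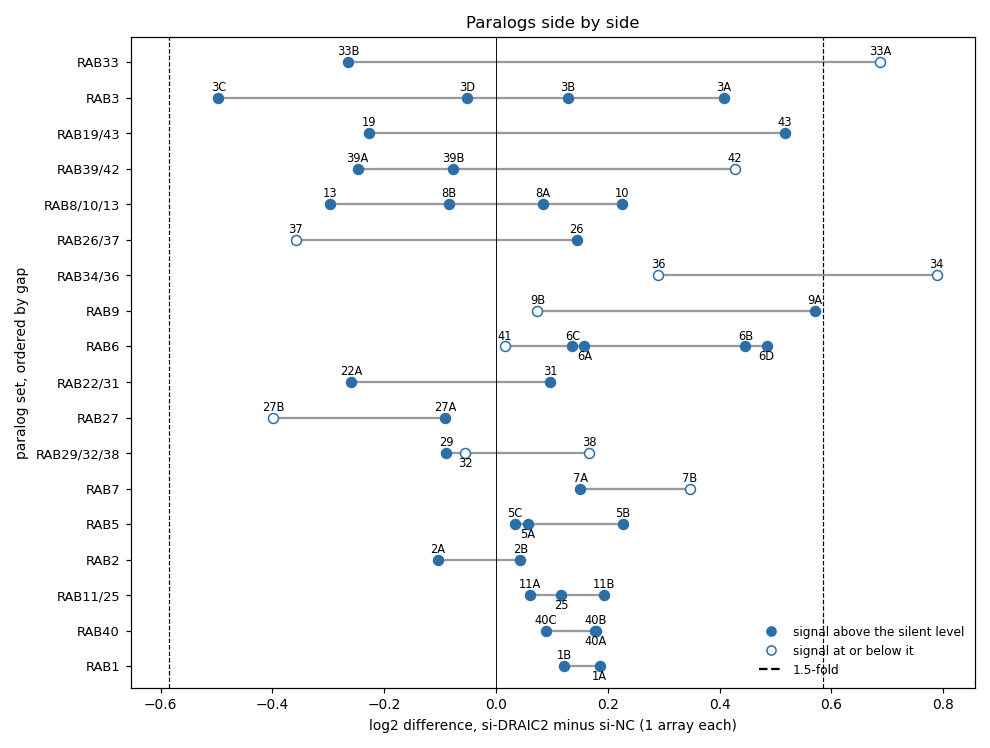
Log2 difference between si-*DRAIC*2 and si-NC (x axis) for the paralogs of each of 18 sets (y axis), ordered from the widest gap (RAB33, 0.95) to the narrowest (RAB1, 0.064). Filled circles are genes above the silent level, open circles genes at or below it, and the dashed lines mark 1.5-fold. Only *RAB33A* and *RAB34*, both open circles, lie beyond the dashed lines.

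Among the genes that control or read the RABs, 5 exchange factor genes were lower, 2 of them dim, and 0 were higher. The 5 lower genes are 13.9% of the 36 measured, against 6.26% of all rows lower and 11.4% past 1.5-fold in either direction. With so few genes and 1 array per condition this was not tested. *RIN2*, an exchange factor for RAB5, went from 9.06 in si-NC to 7.62 in si-*DRAIC*2 (−1.44). *DENND6A*, an exchange factor for RAB14, had 10.89 and 9.78, a difference of −1.11, and *AVL9*, a member of a family related to the DENN proteins, had 11.16 and 10.15, a difference of −1.0. *DENND2A* and *DENND2C* were lower with mean signals below the silent level. The median of the 36 was −0.039. RAB5 and RAB14 genes themselves were within 1.5-fold.

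Of 36 TBC domain and RAB3GAP genes, 3 were higher and 2 lower (13.9%), with a median of 0.040. Of 54 effector genes, 4 were higher and 2 lower (11.1%), with a median of 0.060. Both shares were near the 11.4% of all rows. *USP6NL*, which inactivates RAB5, went from 8.87 to 9.57 (0.70). *SGSM3* had 0.73 and *TBC1D7*, a subunit of the TSC complex, 0.63, and the lower genes *TBC1D10A* and *TBC1D10C* were dim. Among the effectors, *APPL2*, an endosomal adaptor that binds RAB5 and RAB21, went from 8.59 to 9.31 (0.71). *OPTN*, an autophagy receptor that binds RAB8, had a difference of 0.61. *ACAP2*, which binds RAB35, had 11.81 and 10.92, a difference of −0.89. *RILPL1*, *SYTL1* and *RUSC2*, also past 1.5-fold, had mean signals below the silent level. The 5 measured genes of GDI, REP and prenylation were all within 1.5-fold, with a median of 0.17.

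Other small GTPases were measured for comparison. Of 34 RAS family rows, 4 were higher and 2 lower (17.6%, against 11.4% of all rows), with a median of −0.040. *MRAS* (1.12), *RAP2B* (0.82) and *RAP1B* (0.59) were higher and not dim, with *RAP1B* barely past the threshold at 1.507-fold. Of the ARF, ARL and SAR1 genes only 14 of 31 have a named row, and *SAR1A*, which starts the COPII coat, was lower, from 12.38 to 11.30. Of 8 RAB-like genes, *CRACR2A* was lower at a dim signal. Against these families and all rows, the RAB genes had a count past 1.5-fold in the same range and the highest share of positive differences. This share was 66.1%, against 44.1% for the RAS, 50.0% for the ARF, ARL and SAR1 and 37.5% for the RAB-like rows. It was 59.3% for the effectors, 58.3% for the TBC and RAB3GAP genes and 47.2% for the exchange factors. All 5 measured genes of GDI, REP and prenylation had positive differences, so the lean was not particular to the RAB genes. The RAB share includes genes at or below the silent level, and it was 60.0% at or above the median signal. The shares of the other families and lists at that signal were not computed. With 1 array per condition this difference between families was not tested.

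**Figure D4:**
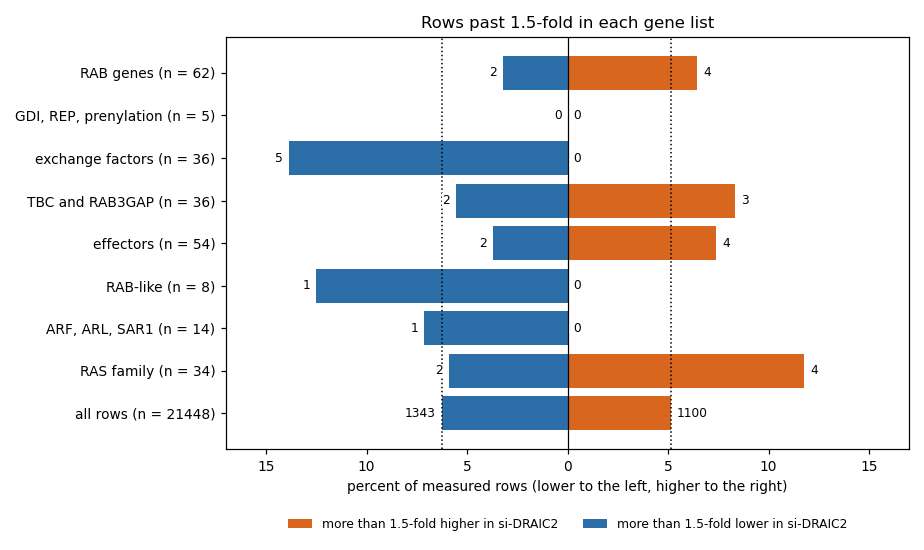
Share of measured rows more than 1.5-fold lower (bars to the left) and higher (bars to the right) in si-*DRAIC*2 for the RAB genes and 7 related lists, with the number of rows beside each bar. Dotted lines mark the shares over all rows, 6.26% lower and 5.13% higher. The exchange factors have 5 lower and 0 higher rows, and the RAB genes 2 lower and 4 higher.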

How the data were processed

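Total RNA of VMRC-LCD cells treated with si-NC or si-*DRAIC*2 was read on Human Clariom S arrays, 1 array per condition. The authors deposited log2 signals that the Transcriptome Analysis Console had computed from the scans by SST-RMA (background correction, quantile normalization, probe summarization). Its version and any filter were not stated in the sources read. Quantile normalization removes a shift shared by all transcripts. The arrays carry no measure of depth, and their number limits the precision.

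Values were used as deposited. Symbols came from the platform annotation, and all 62 RAB genes matched RefSeq by gene identifier. The 1.5-fold threshold follows the study's methods. Paralog sets, sites and gene lists were written by hand, and the members and lists were chosen with earlier results of these data known. All RAB genes past 1.5-fold, those next to the threshold, the 5 brightest and the paralogs of those past it are named, and from the other lists those past 1.5-fold at or above the median signal. 1 of the comparison lists is not reported here. Further genes were named after their values were seen. Alternatives were 2 filters on low signals, a 2-fold threshold, centring of the median, a loess on the mean signal (span 0.3) subtracted, an offset of 32, and averaging of rows with 1 symbol. The calling and loess steps were tested on simulated data. The planted differences were well above the 1.5-fold threshold and the noise was smaller than the spread of these data. The simulation therefore checks the steps only and does not bear on calls near the threshold. Promoters were taken from RefSeq (GRCh38.p14), 250 bases before the outermost start of the gene, or before the first start listed where that one had no window (4 RAB genes, *RAB3C*, *RAB10*, *RAB13* and *RAB34*). Python 3.11.15, numpy 2.4.6, pandas 2.3.3, statsmodels 0.14.6 and matplotlib 3.10.9 were used.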

Additional observations from a re-analysis of the deposited data

How the results depend on the processing

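No paired analysis was possible because each condition has 1 array. The median difference of the RAB genes ranged from 0.061 to 0.11 over the settings that gave one. *RAB21*, *RAB24*, *RAB15* and *RAB28* passed 1.5-fold under every alternative with that threshold. For these genes the filters and the averaging leave the difference as it was. Only the centring, the loess and the offset could alter it. With a 2-fold threshold, 2 RAB genes passed (1 higher, 1 lower), with 3 exchange factors, 1 effector and 1 RAS row, and 0 TBC or RAB-like rows, against 1.60% of all rows. With 32 added to both linear signals, 2 RAB genes were higher, and 3 exchange factors, 3 effectors, 2 TBC, 3 RAS and 0 RAB-like rows passed, against 4.17% of all rows. With dim rows left out, or with rows at or below the silent level left out, 2 RAB genes were higher and 2 lower. In both settings 3 exchange factors, 3 effectors, 3 RAS and 0 RAB-like rows passed, and without dim rows also 3 TBC rows. Of all rows 8.36% passed in the first setting and 9.28% in the second. These filters leave fewer genes, 45 and 48 of the RAB genes. The median of the late endosome RABs became −0.089 without dim rows, where it rests on 3 genes, and that of the 3 genes of other sites there was 0.35. *RAB9A* passed 1.5-fold after the loess (0.60). The count of RAS rows past 1.5-fold was 5 after the loess and 6 as deposited, with 11.4% of all rows past it in both. Dim rows are limited by their closeness to the silent level, and 14 RAB genes lie at or below it.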
